A study of Arabidopsis thaliana and Arabidopsis thaliana x Arabidopsis arenosa with 9 samples.

Results

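The 10 genes described here are MADS box genes, most of them known from work on ovule and seed coat identity in Arabidopsis thaliana. They were listed by locus, with earlier results of these data known. They are SEEDSTICK (STK, AT4G09960), SHATTERPROOF1 and SHATTERPROOF2 (SHP1, AT3G58780, and SHP2, AT2G42830), AGAMOUS (AG, AT4G18960), SEPALLATA1 to SEPALLATA4 (SEP1, AT5G15800, SEP2, AT3G02310, SEP3, AT1G24260, and SEP4, AT2G03710), FRUITFULL (FUL, AT5G60910) and TRANSPARENT TESTA16 (TT16, AT5G23260). All 10 were among the 33602 loci of the count table. The study asked how the maternal and paternal genomes are expressed in early seed, and its control crosses supplied 4 mRNA-seq libraries of whole seeds at 3 days after pollination (3 DAP). There were 2 libraries of ColA9 X C24, in which a male-sterile Col-0 line was pollinated by wild type C24, and 2 of C24A9 X Col-0, in which a male-sterile C24 line was pollinated by wild type Col-0. The seed parent is named first. Both seed parents were hemizygous for a male sterility construct, and seeds of many siliques were pooled for each library.

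The proteins of these genes act as transcription factors that bind DNA in complexes of several MADS proteins. STK, SHP1, SHP2 and AG form the AG clade and direct carpel and ovule identity, and the SEP proteins bridge such complexes as cofactors. TT16, a B-sister gene, is needed for the endothelium, the innermost seed coat layer that accumulates proanthocyanidins, while FUL patterns the silique valves. The ovule integuments become the seed coat after fertilization, and that tissue is wholly maternal. In these crosses the seed coat therefore carried the genome of the Col-0 line in ColA9 X C24 and that of the C24 line in C24A9 X Col-0. Because whole seeds were sampled, fewer cells of a type and less RNA per cell cannot be told apart. The accession of the seed parent, the direction of the cross and the accession of the seed coat also cannot be told apart.

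Counted reads came to between 3538335 and 6498145 per library, and values below are CPM after TMM normalization, that is, counts scaled to a common library size. Replicate 2 of C24A9 X Col-0 stood apart from the other libraries, because it had reads on 64.4% of the 10653 loci that were at 0 in the other 3, whereas the same share was 1.89% to 4.63% for each of the other libraries. Over those 10653 loci, the ones without a read included, this library had a median of 2 and a 95th percentile of 18 counts per locus. The labelled tissue was checked with marker lists. Seed coat markers summed to 20700 and 8050 CPM in ColA9 X C24, against 51500 and 14100 CPM in C24A9 X Col-0. TT4 alone gave 10900 and 1310 CPM against 31700 and 5480 CPM of these sums, so they were not read as an amount of seed coat. Of the 14 seed coat markers 1 and 1 were at 0 in ColA9 X C24 and 1 and 0 in C24A9 X Col-0. BANYULS (BAN), the anthocyanidin reductase of the endothelium, was at 1740 to 5010 CPM. Silique wall markers summed to 108 and 97.4 CPM against 105 and 112 CPM, with 3 and 4 of the 13 wall markers at 0 in ColA9 X C24 and 5 and 1 in C24A9 X Col-0. Among them ALC was present at 59.2 to 70.5 CPM and RPL at 17.4 to 32.3 CPM in every library. Leaf photosynthesis genes summed to 881 and 343 CPM against 2110 and 1330 CPM, with 0 of 5 genes at 0 in any library. Endosperm genes summed to 48.5 and 99.2 CPM against 86.9 and 142 CPM.

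Several of the genes are close copies, so the sequences were compared before their reads were. The coding sequences of SHP1 and SHP2 were identical at 84.6% of 739 aligned bases, and those of SEP1 and SEP2 at 86.4% of 750 aligned bases. The longest exact run that each pair shared is shown because a read that lies within it fits both genes, with coding position 290 as its first base in both SHP genes and position 25 in both SEP genes (RefSeq models of TAIR10.1).
SHP1 and SHP2: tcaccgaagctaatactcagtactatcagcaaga
SEP1 and SEP2: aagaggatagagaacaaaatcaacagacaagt
These runs are 34 and 32 bases long. None of the 80-base windows, the read length named in the study's methods, was shared between the 10 genes (0 windows), but reads were trimmed and this does not cover reads shorter than the runs. STK and SHP1 were identical at 71.8% of 731 aligned bases with a longest run of 26 bases, AG and SHP1 at 70.4% with 15 bases, and STK and TT16 at 65.1% with 10 bases. Windows were shared only with overlapping genes on the opposite strand. These windows were 0.568% of those of STK (with AT4G09950), 17.8% of SHP1 (AT3G58790), 33.9% of SHP2 (AT2G42835) and 25.4% of SEP1 (AT5G02455). The strandedness of the libraries is not given in the sources used here, so reads in these overlaps could belong to either gene. AT4G09950 and AT2G42835 had 0 to 6 counts and AT3G58790 had 25 to 50 counts per library, and AT5G02455 is not a row of the count table.

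STK had the highest mean level of the 10 genes. Among these libraries STK and SEP1 were the 2 genes whose levels were at least 2-fold higher in ColA9 X C24 on average, and their close relatives SHP1, SHP2 and SEP2 were not. The differences of STK and SEP1 passed the test in the fit that takes the replicate number as a block and did not pass without it. SEP3 had a log2 ratio between the crosses of 1.46 in replicate 1 and 0.04 in replicate 2, AG and SHP1 changed sign with the replicate number, and SEP4 and FUL were close to the limit of detection. The plot of CPM by library shows all 40 values.

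**Figure D1:**
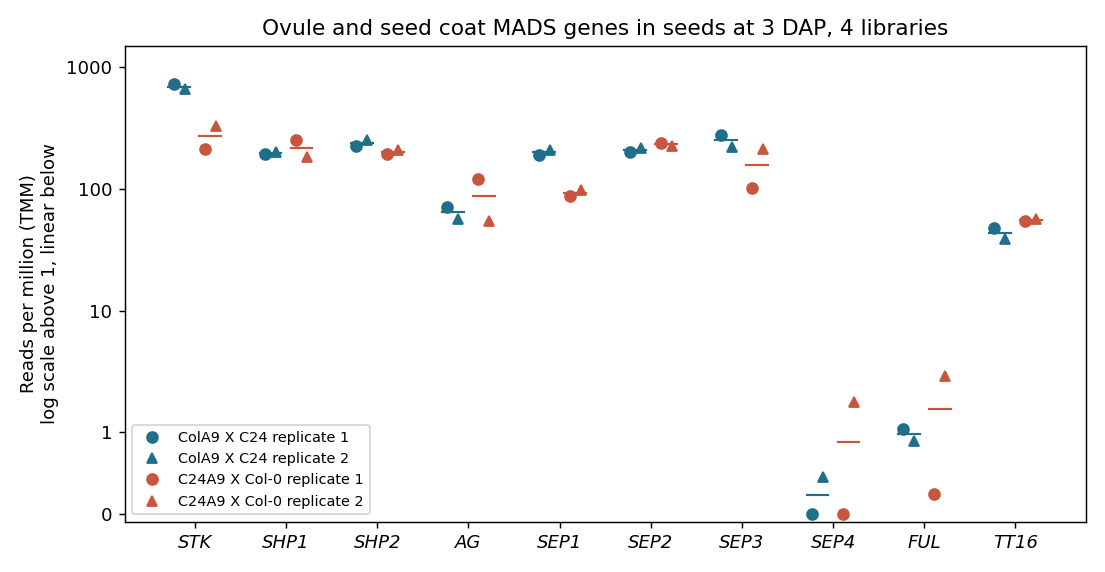
CPM after TMM normalization (vertical axis, log scale above 1 and linear below) of the 10 genes in the 4 libraries, with circles for replicate 1, triangles for replicate 2 and a bar for the mean of each cross. STK lies at 730 and 658 CPM in ColA9 X C24 against 213 and 331 CPM in C24A9 X Col-0, and SEP4 and FUL lie under 3 CPM in every library.

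Levels of different genes were compared per kilobase of the longest annotated transcript. On this scale STK averaged 290 ± 150 CPM per kb (SD, n = 4 libraries of both crosses, here and for the order that follows) and lay between percentiles 95.9 and 99.6 of 26712 nuclear coding loci. SHP2 followed with 172 ± 19.3, SEP3 with 161 ± 58.8 and SEP2 with 148 ± 10.7 CPM per kb, and these 3 lay within their pooled spread. The pooled spread includes the difference between the crosses, so the order was also read within each cross. In ColA9 X C24 STK had 439 and 395 CPM per kb and SHP2 177 and 197, without overlap. In C24A9 X Col-0 the groups overlapped, with STK at 128 and 199 CPM per kb, SHP2 at 152 and 164, and SEP2 at 161 and 151. SHP1 and SEP1 were next at 97.1 ± 15 and 95.7 ± 40.8 CPM per kb over all 4 libraries, but their order turned with the cross. In ColA9 X C24 SEP1 had 124 and 137 CPM per kb and SHP1 89.9 and 94.7, whereas in C24A9 X Col-0 SEP1 had 57.5 and 64 and SHP1 119 and 85. AG at 39.3 ± 16.3 and TT16 at 36.6 ± 5.95 CPM per kb also overlapped. FUL at 0.99 ± 0.888 and SEP4 at 0.382 ± 0.578 CPM per kb ended the order, with neither level separable from the other. With the coding length in place of the transcript length 7 of 10 genes kept their place, while SEP2, SHP2 and SEP3 exchanged theirs at 295 ± 21.2, 295 ± 33 and 271 ± 98.5 CPM per coding kb. Thus 8 of the 10 genes were well detected in seed at 3 DAP and the other 2 had under 20 counts in every library.

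**Figure D2:**
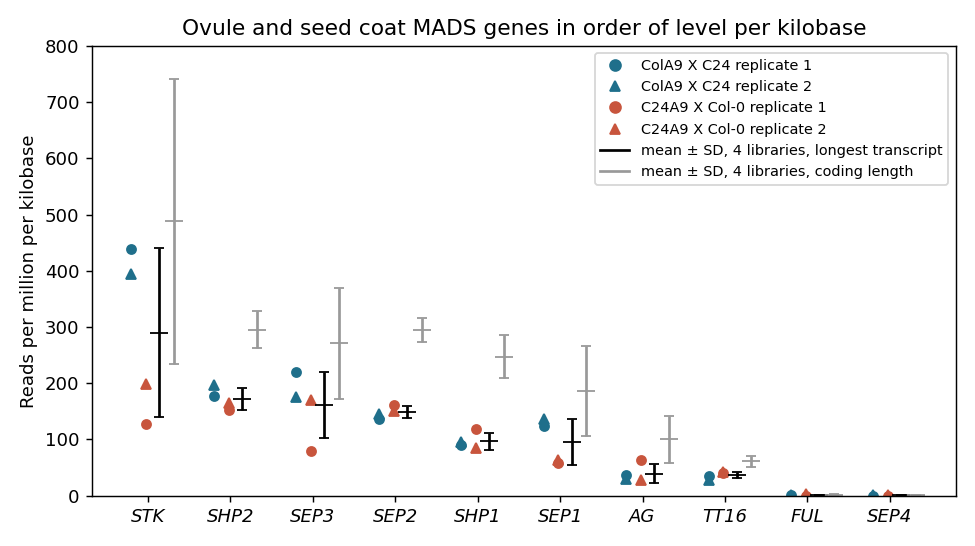
CPM per kilobase (vertical axis) of the 10 genes in order of their mean, with coloured points for the 4 libraries on the transcript length, black bars for mean ± SD over the 4 libraries on the transcript length and grey bars for the same on the coding length. The mean of STK stands first on both lengths, and the black means of SHP2, SEP3 and SEP2 lie between 148 and 172 CPM per kb.

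The first comparison asked which of the genes differed between the reciprocal crosses. The 8 genes with at least 10 counts in at least 2 libraries entered edgeR's quasi-likelihood test over 16779 genes. Without a block 0 of the 8 had an adjusted p under 0.05, as did 0% of all tested genes, and 1 of the 8 (SEP1) had an unadjusted p under 0.05, against 7.46% of all genes. With the replicate number as a block 2 of the 8 passed, both higher in ColA9 X C24, where 6.66% of all tested genes passed, 2.24% higher and 4.42% lower. The median log2 fold change of the 8 genes was 0.05 without the block, beside -0.01 for all tested genes. By level alone 4 of the 8 (STK, SHP2, SEP1 and SEP3) had both ColA9 X C24 libraries above both C24A9 X Col-0 libraries, beside 19.6% of all tested genes. In the same way 2 of the 8 (SEP2 and TT16) had both ColA9 X C24 libraries below, beside 17.3% of all tested genes. An exact permutation test of a single value in 2 against 2 libraries cannot give a two-sided p under 0.33.

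STK, the D-class gene that specifies ovule identity and later the seed abscission zone, spans chromosome 4 of TAIR10.1 from 6236375 to 6241281 on the minus strand. The longest annotated transcript has 8 exons, and exon numbers of the genes below are also those of the longest transcript alone. STK had 4788 and 2950 raw counts in replicates 1 and 2 of ColA9 X C24, against 904 and 2052 in those of C24A9 X Col-0. Its level was 730 and 658 CPM against 213 and 331 CPM. Both libraries of ColA9 X C24 lay above both of C24A9 X Col-0, and the means were 694 ± 51.2 and 272 ± 83.3 CPM (SD, n = 2 each, here and below). The log2 fold change of ColA9 X C24 over C24A9 X Col-0 was 1.35 (SE 0.55, adjusted p = 0.677 by edgeR). With the replicate block it was 1.38 (SE 0.35, adjusted p = 0.0311), a 2.61-fold difference. The spread that edgeR estimates in common for all genes (its dispersion) was 0.209 without the block and 0.0733 with it. STK itself had no shared replicate shift, with log2 ratios of replicate 2 over replicate 1 of -0.15 in ColA9 X C24 and 0.64 in C24A9 X Col-0. Within replicate 1 the log2 ratio was 1.78 and within replicate 2 it was 0.99. Without replicate 2 of C24A9 X Col-0, the library with reads on otherwise silent loci, the log2 fold change without a block was 1.70. With library totals in place of TMM the blocked fit no longer called STK, with 1.74 on the log2 scale (adjusted p = 0.0594 by edgeR), where the median of all genes moved to 0.36.

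SEP1 and SEP2 are paralogous E-class genes whose proteins act as largely redundant cofactors of floral organ and ovule identity. SEP1 lies on chromosome 5 from 5151334 to 5154253 on the minus strand with 7 exons, and SEP2 on chromosome 3 from 464279 to 467151 on the minus strand with 7 exons. SEP1 had 1252 and 944 raw counts in ColA9 X C24, against 375 and 609 in C24A9 X Col-0. Its level of 191 and 210 CPM lay above the 88.3 and 98.2 CPM of C24A9 X Col-0, without overlap. The means were 201 ± 13.8 and 93.3 ± 6.96 CPM. The log2 fold change was 1.11 (SE 0.40, adjusted p = 0.617 by edgeR), and with the replicate block 1.11 (SE 0.28, adjusted p = 0.0345), a 2.15-fold difference. The ratio was nearly the same in both replicate numbers, with log2 values of 1.11 and 1.10. SEP2 had 203 and 218 CPM in ColA9 X C24 against 241 and 226 CPM in C24A9 X Col-0. Its groups did not overlap but lay close, at 210 ± 10.6 and 234 ± 10.2 CPM, and its log2 fold change was -0.15 (SE 0.43, adjusted p = 0.96 by edgeR) without and -0.15 (adjusted p = 0.837) with the block.

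Shares of reads between relatives within a library do not depend on the scaling of libraries. SEP1 took 48.5% (95% Wilson interval 46.6 to 50.4) and 49.2% (46.9 to 51.4) of the reads of SEP1 and SEP2 in replicates 1 and 2 of ColA9 X C24. In C24A9 X Col-0 it took 26.8% (24.6 to 29.2) and 30.3% (28.3 to 32.3). The difference was 20.3 percentage points and exceeded the pooled SD of 1.74. Its exact two-sided permutation p was 0.33, the smallest possible when the 4 libraries are permuted without regard to the replicate number. The other permutation tests of shares also ignored the replicate number. Each replicate of ColA9 X C24 thus had nearly equal numbers of reads from the pair, and each replicate of C24A9 X Col-0 had more reads from SEP2. STK took 59.8% and 56.2% of the reads of the AG clade (STK, SHP1, SHP2 and AG) in ColA9 X C24, against 27.1% and 42.6% in C24A9 X Col-0. This difference of 23.2 percentage points had a pooled SD of 7.94 and an exact permutation p of 0.33, and it was computed after the levels had been seen. The intervals treat each read as independent and leave out the spread between libraries. Amplified reads are not independent molecules, so the intervals can be too narrow.

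**Figure D3:**
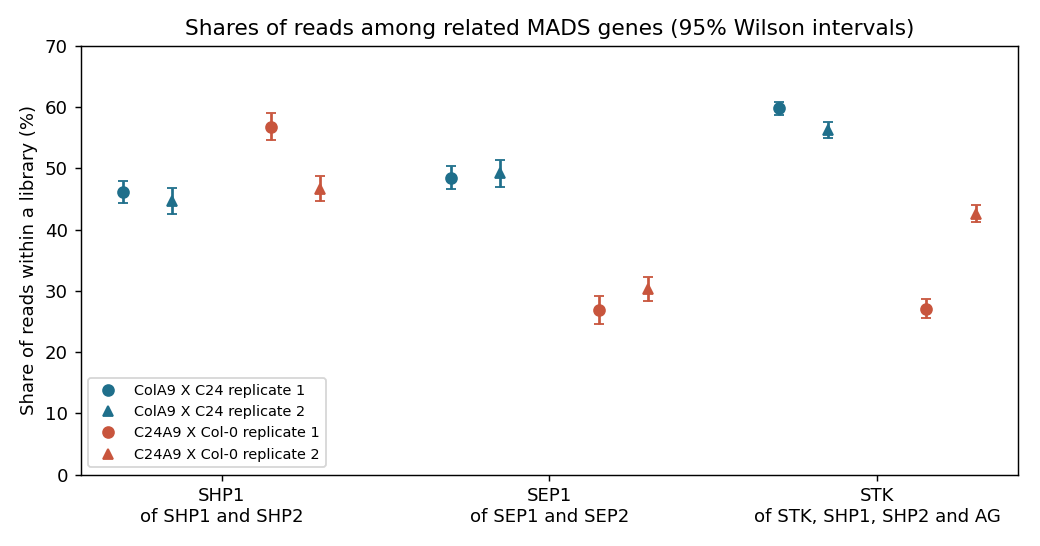
Share of reads in percent (vertical axis) taken by SHP1 within the SHP pair, by SEP1 within the SEP1 and SEP2 pair and by STK within the AG clade, in each library with its 95% Wilson interval. SEP1 lies at 48.5% and 49.2% in ColA9 X C24 against 26.8% and 30.3% in C24A9 X Col-0, and SHP1 lies apart in replicate 1 of C24A9 X Col-0 alone, at 56.8%.

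SHP1 and SHP2, which act with STK in ovule identity and form the valve margin of the silique, had smaller fold changes between the crosses, and neither passed the test. SHP1 lies on chromosome 3 from 21738160 to 21742517 on the plus strand with 10 exons, and SHP2 on chromosome 2 from 17820114 to 17824013 on the plus strand with 7 exons. SHP1 had 193 and 203 CPM in ColA9 X C24 against 255 and 183 CPM in C24A9 X Col-0. These groups overlapped, with means of 198 ± 7.27 and 219 ± 51.4 CPM and a log2 fold change of -0.14 (SE 0.44, adjusted p = 0.962 by edgeR). SHP2 had 225 and 252 CPM in ColA9 X C24 against 194 and 209 CPM in C24A9 X Col-0. Its groups did not overlap, but the log2 fold change was 0.24 (SE 0.43, adjusted p = 0.936 by edgeR) and stayed at 0.24 with the block (adjusted p = 0.718). SHP1 took 46.2% and 44.7% of the reads of the pair in ColA9 X C24, against 56.8% and 46.7% in C24A9 X Col-0. The difference of -6.3 percentage points was close to the pooled SD of 5.11, and its exact permutation p was 0.33.

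AG, the C-class gene of stamen and carpel identity, lies on chromosome 4 from 10382856 to 10388539 on the plus strand with 10 exons. It had 71.8 and 56.6 CPM in ColA9 X C24 against 122 and 54.3 CPM in C24A9 X Col-0. Replicate 1 of C24A9 X Col-0 was the high library, and the groups overlapped at means of 64.2 ± 10.7 and 88.3 ± 48 CPM. The log2 fold change was -0.46 (SE 0.49, adjusted p = 0.896 by edgeR), and without replicate 1 of C24A9 X Col-0 it turned to 0.24. The same omission turned SHP1 to 0.12.

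SEP3, the SEP gene with the broadest set of protein partners, lies on chromosome 1 from 8593536 to 8596123 on the minus strand with 8 exons. It had 1833 and 995 raw counts in ColA9 X C24, against 431 and 1336 in C24A9 X Col-0. The levels were 280 and 222 CPM against 102 and 215 CPM. Only replicate 1 of C24A9 X Col-0 lay well below the rest, while the replicate 2 libraries were nearly level. The log2 ratio was 1.46 within replicate 1 and 0.04 within replicate 2. The fold change on the log2 scale was 0.66 (SE 0.53, adjusted p = 0.866 by edgeR), 0.75 with the block (adjusted p = 0.291), and 0.22 without replicate 1 of C24A9 X Col-0. Without replicate 2 of that cross it was 1.3.

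TT16 lies on chromosome 5 from 7835965 to 7838555 on the plus strand with 7 exons. It had 314 and 174 raw counts in ColA9 X C24, against 230 and 353 in C24A9 X Col-0, and levels of 47.9 and 38.8 CPM against 54.2 and 56.9 CPM. Both ColA9 X C24 libraries lay below both C24A9 X Col-0 libraries, with means of 43.3 ± 6.43 and 55.5 ± 1.93 CPM. The log2 fold change was -0.36 (SE 0.33, adjusted p = 0.878 by edgeR), and with the block it was -0.36 (adjusted p = 0.527).

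SEP4 and FUL were near the floor. A count of 0 allows up to 3 counts, which is 0.457 to 0.707 CPM in these libraries. SEP4, on chromosome 2 from 1129229 to 1131838 on the plus strand with 7 exons, had 0 and 2 raw counts in ColA9 X C24, against 0 and 11 in C24A9 X Col-0. FUL, on chromosome 5 from 24502434 to 24506269 on the minus strand with 8 exons, had 7 and 4 counts against 1 and 18. The highest count of each came from replicate 2 of C24A9 X Col-0 and did not exceed 18 counts, the 95th percentile of this library over the loci silent elsewhere. Differences between the crosses were not detectable for either gene at this depth.

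**Figure D4:**
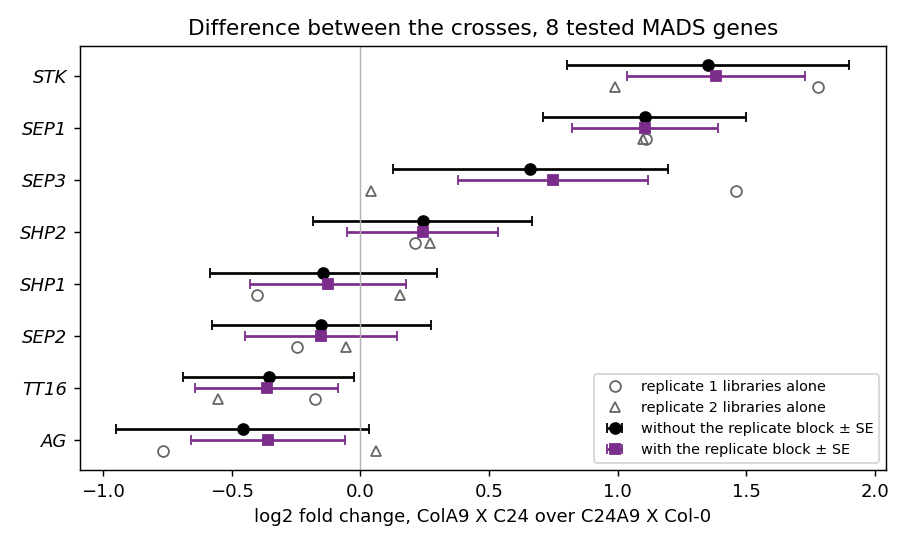
Log2 fold change of ColA9 X C24 over C24A9 X Col-0 (horizontal axis) for the 8 tested genes, with filled circles and squares for edgeR's estimates ± SE without and with the replicate block and open symbols for the ratio within each replicate number. STK and SEP1 lie above 0.9 in both replicate numbers, and SEP3 lies at 1.46 in replicate 1 and 0.04 in replicate 2.

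The second comparison set replicate 2 against replicate 1 with the cross as a term, because the study's methods describe duplex-specific nuclease treatment of replicate 2, which removes abundant cDNA. In this contrast 0 of the 8 genes passed, beside 9.89% of all tested genes, of which 3.22% were higher and 6.67% lower in replicate 2. The median log2 fold change of the 8 genes was 0.07, equal to that of all tested genes at this rounding. AG was the gene with an unadjusted p under 0.05, at a log2 fold change of -0.76 (SE 0.30, unadjusted p = 0.0248, adjusted p = 0.135 by edgeR). SEP2 changed least, at 0.01 (adjusted p = 0.992 by edgeR). STK was at 0.24 (SE 0.34), with -0.15 within ColA9 X C24 and 0.64 within C24A9 X Col-0. SEP1 was at 0.15 (SE 0.28) and had 0.14 and 0.15 within the crosses. For SEP1 the replicates of a cross thus lay closer together than the crosses did.

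The promoters of STK and SEP1 are shown because these genes were higher in the same libraries, and that of SEP2 because it is the paralog of SEP1 that did not pass the test. Each is the stretch of 250 bases before the outermost annotated start in TAIR10.1 (RefSeq), written 5′ to 3′ on the gene's strand, with GAGAGA or TCTCTC in capitals. STK is chr4:6241282-6241531, SEP1 is chr5:5154254-5154503 and SEP2 is chr3:467152-467401, all on the minus strand.
STK: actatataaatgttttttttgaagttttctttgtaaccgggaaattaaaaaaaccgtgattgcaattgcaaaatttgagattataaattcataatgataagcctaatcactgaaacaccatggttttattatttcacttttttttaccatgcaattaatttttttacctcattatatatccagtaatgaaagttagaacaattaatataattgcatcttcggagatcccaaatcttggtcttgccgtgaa
SEP1: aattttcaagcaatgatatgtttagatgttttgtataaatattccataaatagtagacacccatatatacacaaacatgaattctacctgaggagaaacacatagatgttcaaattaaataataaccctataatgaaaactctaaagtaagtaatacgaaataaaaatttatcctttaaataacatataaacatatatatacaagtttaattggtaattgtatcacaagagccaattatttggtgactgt
SEP2: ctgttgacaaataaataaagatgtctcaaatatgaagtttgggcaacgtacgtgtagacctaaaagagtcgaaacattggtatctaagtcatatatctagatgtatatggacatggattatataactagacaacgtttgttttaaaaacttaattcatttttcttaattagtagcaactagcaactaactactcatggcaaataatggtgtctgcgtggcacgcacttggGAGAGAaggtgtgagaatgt
A CArG box, the motif of MADS proteins, was searched on both strands in its strict form only, CC, 6 bases of A or T, and GG. It was found in 0 of the 10 promoters and in 2.52% of 27443 promoters of the same length. Looser forms were not searched, and at this background 10 windows are too few for the absence to be read. GAGAGA or TCTCTC occurred in 6 of the 10 (SEP2, SEP3, SEP4, SHP1, SHP2 and AG) and in 20.6% of all promoters. STK, SEP1, TT16 and FUL had no match to either motif in this window. The GC content of the windows was 27.6% for STK, 24.8% for SEP1 and 34.8% for SEP2.

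How alike the genes were over the 4 libraries was measured as the root mean square (RMS) difference of log2 CPM after each gene was centred. STK was most like SEP1 among the tested genes of this group, at 0.24 log2 units over 4 libraries, and least like AG, at 1.08. SHP1 and SEP2 were the closest pair at 0.14, while the paralogs SHP1 and SHP2 were 0.28 apart and SEP1 and SEP2 0.63 apart. Over all tested loci the nearest to STK were AT5G25560 (0.04), AT3G13230 (0.06) and AT2G01750, annotated as MAP70-3 (0.06). The nearest to TT16 were AT3G26100 (0.03), AT3G11660 (NHL1, 0.04) and AT1G09940 (HEMA2, 0.04), and those to SEP3 were AT5G48730 (0.02), AT5G46550 (0.04) and AT3G25740 (MAP1B, 0.05). With 4 libraries such profiles have few independent points.

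Other genes of the pathway were read from lists, which were also chosen with earlier results of these data known, all in the same fits. Of 23 other MIKC type MADS genes 8 were tested, and 0 passed between the crosses without or with the block. AP3, a B-class gene of petal and stamen identity, had the most reads of these, with 291 and 323 CPM in ColA9 X C24 against 137 and 206 CPM in C24A9 X Col-0. Its log2 fold change was 0.84 (SE 0.47, adjusted p = 0.79 by edgeR) and 0.87 with the block (adjusted p = 0.121). AGL18 had 59.5 and 36.1 CPM against 52.5 and 35.1 CPM. AGL6, the closest relative of the SEP clade, had 36.4 and 11.6 CPM against 65 and 21 CPM and was lower in replicate 2 than in replicate 1, at a log2 fold change of -1.64 (adjusted p = 0.00348 by edgeR). This call was lost with library totals and without a term for the cross.

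Of 16 regulators of ovule development 12 were tested and 0 passed without or with the block by edgeR with TMM, and their median log2 fold change was 0.24. The corepressor gene SEU had 66.6 and 61.8 CPM in ColA9 X C24 against 50.9 and 59.3 CPM in C24A9 X Col-0, TSO1 had 50.5 and 54.6 CPM against 51.6 and 35.3 CPM, and AP2, which acts in seed coat and floral identity, had 51.2 and 52.4 CPM against 32.7 and 48 CPM. INO, a gene of the outer integument named after its values were seen, had 31 and 20.1 CPM against 4.95 and 12.9 CPM. Its log2 fold change was 1.50 (SE 0.56, adjusted p = 0.639 by edgeR) and 1.56 with the block (adjusted p = 0.0848), and it passed in the blocked fit with DESeq2 size factors (adjusted p = 0.0464).

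Of 14 seed coat genes 13 were tested, and 12 of these had a log2 fold change under 0, with a median of -0.66. Of all tested genes 49% had one above 0. Here 0 passed without the block. With it 4.42% of all tested genes were called lower in ColA9 X C24, and so were 2 of the 13. These were TT4, the chalcone synthase gene, at -1.80 (adjusted p = 0.0248 by edgeR) and F3H, the flavanone 3-hydroxylase gene, at -1.46 (adjusted p = 0.0134). With library totals in the blocked fit 0 seed coat genes passed, and the blocked Wald test of DESeq2 called 3. TT4 had 10900 and 1310 CPM in ColA9 X C24 against 31700 and 5480 CPM in C24A9 X Col-0. TT3, the dihydroflavonol reductase gene, had 3150 and 2520 CPM against 8310 and 3300 CPM (block adjusted p = 0.256), and BAN had 2710 and 1740 CPM against 5010 and 2010 CPM (block adjusted p = 0.493). In replicate 2 against replicate 1, 4 seed coat genes were called lower, beside 6.67% of all tested genes. These were TT4, TT12, TT1 and F3H, at log2 fold changes of -2.80, -2.04, -1.50 and -1.51. Of them TT4 and TT12 also passed with library totals, and 0 passed without a term for the cross. In the blocked fit STK and SEP1 were thus higher and TT4 and F3H lower in ColA9 X C24. Without the block none of these genes passed, and the levels of TT4 and F3H overlapped between the crosses.

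Of 13 silique wall genes 6 were tested and 0 passed without or with the block. ALC had 65.7 and 70.5 CPM in ColA9 X C24 against 63.6 and 59.2 CPM in C24A9 X Col-0, RPL had 26.7 and 17.4 CPM against 32.3 and 25 CPM, and SPT had 6.71 and 4.91 CPM against 3.06 and 3.55 CPM. Of 8 endosperm genes 7 were tested, with a median of -0.60, and 0 passed. FWA had 25 and 51.1 CPM against 47.6 and 59.2 CPM, FIS2 had 4.27 and 23.2 CPM against 6.12 and 20.3 CPM, and the imprinted type I MADS gene PHE1 had 6.4 and 7.36 CPM against 15.5 and 18.1 CPM. FIS2 and ZOU were called higher in replicate 2 than in replicate 1, beside 3.22% of all tested genes. Of these 2 genes FIS2 alone also passed with library totals. Of 6 embryo genes 3 were tested and 0 passed between the crosses. LEC1 had 8 and 68 raw counts in ColA9 X C24 against 13 and 89 in C24A9 X Col-0 and was higher in replicate 2 than in replicate 1, while WOX8 had 9 and 53 against 3 and 18, and WOX9 had 4 and 10 against 6 and 25. Of 5 pollen genes 0 could be tested, and VGD1 (4 and 6 counts against 2 and 72), VGDH1 (1 and 3 against 2 and 26) and TIP5;1 (0 and 0 against 2 and 6) had the most counts. All 5 leaf genes were tested, with a median of -1.71. With the block 3 passed (RBCS1A, RBCS3B and LHCB1.3), all lower in ColA9 X C24, beside 4.42% of all tested genes. With library totals in the blocked fit 0 of the 5 passed, and without a block or a filter on low counts 2 passed (RBCS3B and CA1). The groups of CA1 overlapped, at 12.5 and 8.47 CPM in ColA9 X C24 against 8.48 and 60.1 CPM in C24A9 X Col-0. RBCS1A, a Rubisco small subunit gene, had 484 and 285 CPM against 968 and 828 CPM, LHCB1.3 had 272 and 12.5 CPM against 909 and 183 CPM, and RBCS3B had 72.3 and 28.8 CPM against 159 and 228 CPM. LHCB1.3 and LHCB2.1 were called lower in replicate 2 than in replicate 1, beside 6.67% of all tested genes. With library totals 0 leaf genes passed this contrast. Without a term for the cross 0 genes of the endosperm, embryo and leaf lists passed it. The part of these other tissues in the differences of STK and SEP1 was not tested.

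**Figure D5:**
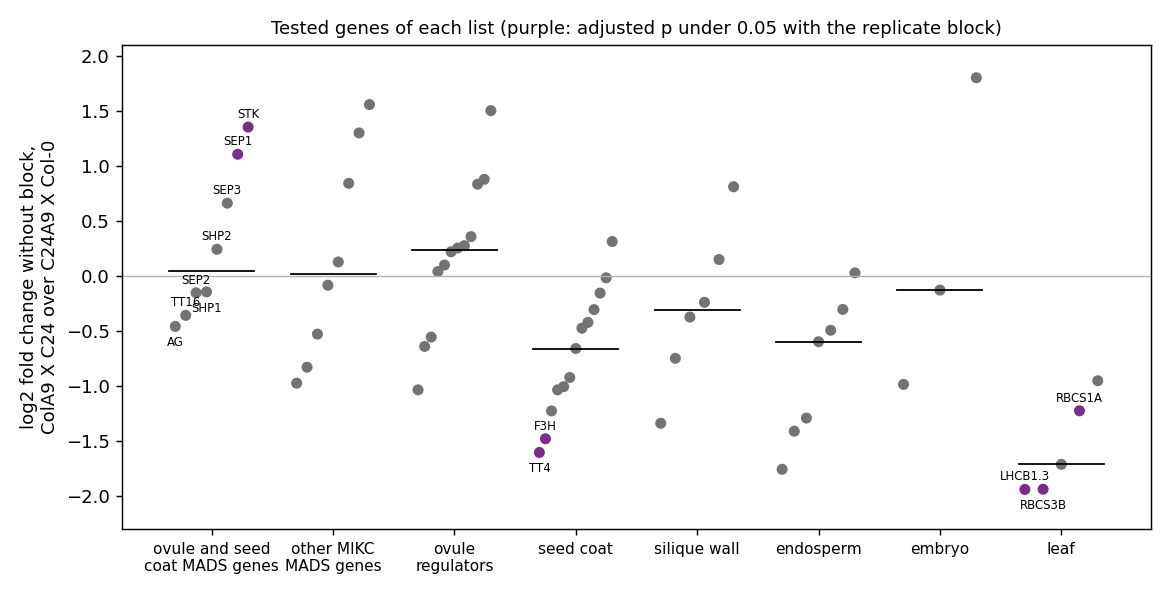
Log2 fold change of ColA9 X C24 over C24A9 X Col-0 without the block (vertical axis) for each tested gene of the lists, with a bar for the median of each list and purple for genes with an adjusted p under 0.05 when the replicate block is used. The 8 tested ovule and seed coat MADS genes have a median of 0.05, the 13 seed coat genes one of -0.66 and the 5 leaf genes one of -1.71.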

How the data were processed

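mRNA-seq of whole seeds at 3 DAP was used, with 2 libraries of ColA9 X C24 and 2 of C24A9 X Col-0. The table the authors deposited holds raw counts per TAIR10 locus. Reads had been quality trimmed and mapped by BWA to the cDNA of every gene model, with SAMtools 0.1.7, and models were summed per locus. How reads with several matches were counted is not given in the sources used here. The reference is of Col-0, so that the fit of C24 reads to it and the accession of the seed parent cannot be told apart. The labels give 100-base reads and the methods 80. Replicate 2 was treated with duplex-specific nuclease according to the methods, and the sample titles do not state this. In the table, 2 further columns carry a mark N, match no sample label and were not used. What the mark stands for is not given in the sources used here. Which columns hold treated libraries is therefore taken from the methods alone. The 5 amplicon samples were not analysed here.

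Loci with at least 10 counts in at least 2 libraries were tested in R 4.3.3 with edgeR 4.0.16 (quasi-likelihood, robust, TMM, Benjamini-Hochberg over 16779 genes). The fit used the 4 libraries without a block. Alternatives were the replicate block, DESeq2 1.42.0 with its size factors or Wald test, library totals, no filter and omission of each library. By the methods a replicate number stands for a shared treatment, and its effect correlated between the crosses (Pearson r = 0.553 across genes), so it was taken to pair the libraries. The cross fit without a block and the replicate fit with the cross as a term were run on simulated counts. For the cross fit these held no replicate effect, and their spread was smaller than that of the unblocked fit here. The blocked cross fit was not simulated. Whether the replicates came from separate plants is not stated for each library, so p-values measure the spread between these libraries.

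The genes and lists were chosen with earlier results of these data known. Named genes are the 10 genes, the 3 genes with most counts of each other list, genes past the threshold, and the 3 loci nearest to STK, TT16 and SEP3. INO, CA1, PI, GOA and AP1 fall outside this rule and were named after their values were seen. Positions are from TAIR10.1, which annotated 97.7% of loci, and several of its longest models may be newer than TAIR10.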

Additional observations from a re-analysis of the deposited data

Results flagged for a closer look

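For 5 of the 8 tested genes replicate 2 lay on opposite sides of replicate 1 in the 2 crosses. This difference was not tested because each cross has 1 library per replicate number. The log2 ratio of replicate 2 over replicate 1 in ColA9 X C24 minus that in C24A9 X Col-0 was -1.42 for SEP3 and -0.79 for STK. It was -0.37 for TT16, 0.56 for SHP1 and 0.19 for SEP2. SEP3 was lower in replicate 2 of ColA9 X C24 (-0.33) and higher in replicate 2 of C24A9 X Col-0 (1.08), and STK had -0.15 and 0.64.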

How the results depend on the processing

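Across 12 alternatives the log2 fold change of STK between the crosses stayed between 1.07 and 1.74 and that of SEP1 between 1.03 and 1.46. STK passed in 3 of them and SEP1 in 4, each time with the replicate block, in edgeR or DESeq2. With the replicate block 1118 genes and 2 of the MADS genes were called. In settings added after seeing the data, the block with DESeq2's Wald test called 819 and 2, the block with DESeq2 size factors 1279 and 2, and the block with library totals 240 and 1 (SEP1). Without the block, library totals called 3 genes, no filter 585 and DESeq2's Wald test 302, while leaving out each library gave 0 to 46, the 46 without replicate 2 of ColA9 X C24, and 0 of the 8 genes. With a library left out, 1 cross has a single library that is assumed to vary like the pair of the other cross, so a lost or missing call there says nothing about stability. The sign turned for SHP1 (0.24) and SEP2 (0.19) with library totals, which moved the median of all genes to 0.30, for both with the block added (0.23 and 0.20), and for SHP1 (0.12) and AG (0.24) without replicate 1 of C24A9 X Col-0. Over the libraries left out, SHP1 ranged between -0.37 and 0.12 and AG between -0.93 and 0.24. With no filter that median was -0.46. In replicate 2 against replicate 1, library totals called 380 genes with a median of 0.58 over the MADS genes, beside 0.57 for all tested genes, and turned SHP1 (0.31) and TT16 (0.40), and no cross term called 0. SEP2 turned with DESeq2 size factors (-0.055), no filter (-0.038) and the Wald test (-0.034). The cause was not tested. Leaving out a library there leaves no residual degrees of freedom and was not run. Per kilobase the differences in share were 20.2 points for SEP1, 22.4 for STK and -5.94 for SHP1.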

Other observations

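AP3 and PISTILLATA (PI) encode the partners of the B-class complex of petals and stamens. AP3 had 1908 and 1449 raw counts in ColA9 X C24, against 580 and 1278 in C24A9 X Col-0. PI had 0 and 0 counts against 2 and 22. The 22 counts came from replicate 2 of C24A9 X Col-0, in which loci silent elsewhere had up to 123 counts. No annotated gene overlaps AP3. GORDITA (GOA), the other B-sister gene beside TT16, had 0 and 2 counts against 0 and 9. Its counts, and those of AP1 (0 and 0 against 0 and 12), did not exceed the range that replicate 2 of C24A9 X Col-0 showed on loci silent elsewhere.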
